A study of Mus musculus with 6 samples.

Results

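Tcf21, Gata4, Gata6, Tbx5, Tbx15, Tbx18, Osr1, Pitx1 and Isl1 are transcription factors of the embryonic mesoderm, and they were followed over all 6 mouse libraries of the series. They were chosen by symbol, as genes whose place in the embryo is known, and they are 9 of the 30281 symbols in the table. In the embryo, the lateral plate mesoderm parts into a layer that lines the body wall and limb buds and a layer that surrounds the gut, heart and other viscera. Cells of each layer, and of the somites and kidney, switch on different sets of such factors. A fibroblast line can keep part of the set of the place it was taken from, which is why these genes are read as hints at embryonic origin.

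The 2 fibroblast libraries came from mouse embryo fibroblasts (MEFs), 1 with the genotype Tsc2-/- and 1 Tsc2+/+, and both lines were also labelled p53-/-. Tsc2 encodes tuberin, which restrains the growth-promoting kinase complex mTORC1. The other 4 libraries came from MKOC and TJ, 2 Tsc2-null lines, by their labels, of mouse kidney epithelium, each left untreated or given 100 nM rapamycin, an mTORC1 inhibitor, for 18 h. Serum was left out of the medium. TJ is labelled as tumor-derived, from a secondary tumor in C57BL6 mice. Each condition is 1 library, so the MEF genotypes cannot be told apart from the lines that carry them, and the MEF and TJ against MKOC values have no replicate check. Levels are Kallisto's TPM, which corrects for transcript length and library size, summed per symbol. Intervals in parentheses are 95% Wilson intervals of the estimated counts behind a level, or exact intervals of a ratio of counts, and cover counting error only. In bulk RNA, fewer cells with a transcript and less of it per cell cannot be told apart.

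Libraries held between 22887020 and 37505004 estimated counts, so that 3 counts, the floor used here, came to between 0.0212 and 0.205 TPM for the 9 factors. Tsc2 RNA was 22.6 TPM in the library labelled Tsc2+/+ and 10.5 TPM in that labelled Tsc2-/-, and between 19.1 and 49.1 TPM in the kidney lines. Trp53 RNA, which encodes p53, was 26.3 and 28.5 TPM in these MEF libraries, from 1417 and 741.5 counts, and between 121 and 149 TPM in the kidney lines. RNA of both genes was thus present in libraries labelled as lacking them. A sum over transcripts can include sequence outside a deleted part, which the labels do not give, so genotypes are given here as labelled. Of 12 fibroblast markers, 10 and 11 reached 1 TPM in the Tsc2+/+ and Tsc2-/- MEFs, with Col1a2, a collagen chain, at 996 and 788 TPM. Of 15 kidney epithelial markers, 8 reached 1 TPM in each kidney library, with the kidney cadherin Cdh16 between 395 and 720 TPM. The lists were not exclusive, as 4 or 5 fibroblast markers also reached 1 TPM in each kidney library, with the filament gene Vim at 3609 to 7523 TPM there and 3522 and 1118 TPM in the MEFs, and 3 kidney epithelial markers did in Tsc2-/- MEFs. The nephron marker Umod and the collecting duct channel Aqp2 were not among those 8.

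Gata4, Tbx18 and Osr1 were above 1 TPM in both MEF lines and below it in all 4 kidney libraries. In Tsc2+/+ MEFs, 4 of the 9 reached 1 TPM (Gata4, Tbx15, Tbx18 and Osr1), against 37.4% of all symbols. In Tsc2-/- MEFs, 6 of the 9 did (Tcf21, Gata4, Gata6, Tbx5, Tbx18 and Osr1), against 40.7% of all symbols. None of the 9 reached 1 TPM in any of the 4 kidney libraries, where the shares of all symbols were 38.3% in untreated MKOC and 38.6% in untreated TJ cells. The highest kidney level of any member was 0.596 TPM, for Osr1 in rapamycin-treated MKOC cells. The MEF lines shared Gata4, Tbx18 and Osr1 and differed in the other 4 expressed factors.

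**Figure D1:**
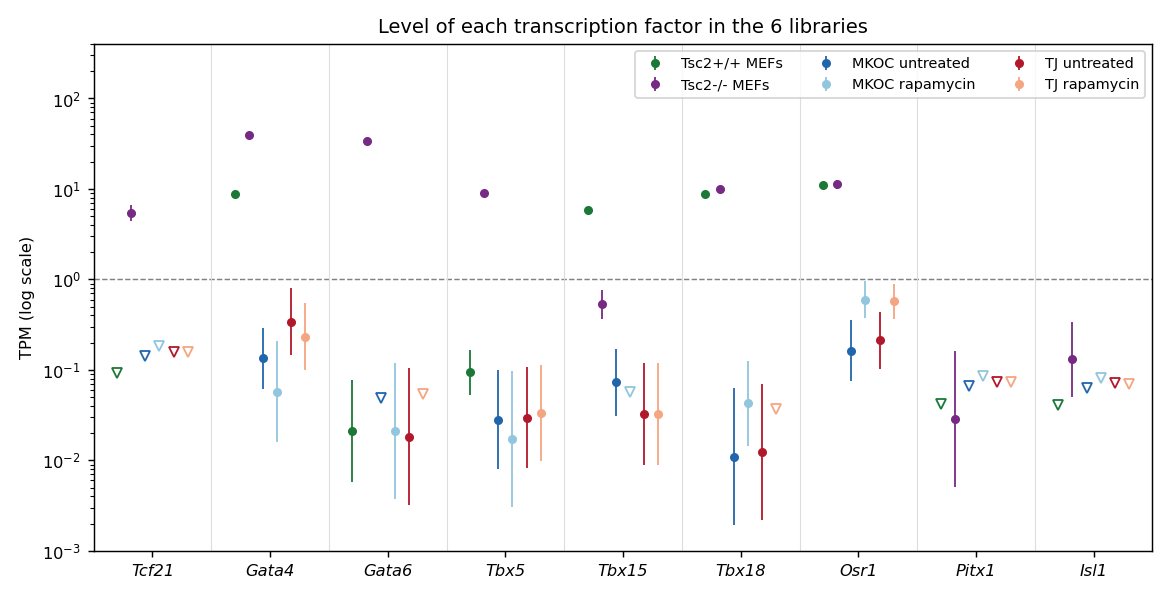
TPM of each factor (log axis) in the 6 libraries, 1 point per library with its 95% Wilson interval. Open triangles stand at the value of 3 counts where no count was seen, and the dashed line marks 1 TPM. Points above that line are MEF libraries only, for 7 of the 9 factors.

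Gata4 and Gata6 are zinc-finger factors of the heart, gut mesoderm and the linings of body cavities. Gata6 (chr18:11052064-11085635, plus strand) was near absent from 1 MEF library and well expressed in the other. It was at 0.0211 TPM in Tsc2+/+ MEFs, from 2 counts, and at 33.9 TPM (32.3 to 35.6) in Tsc2-/- MEFs, from 1583 counts. In the kidney libraries it had between 0 and 1 count. Its TPM ratio between the MEF libraries was 1609 (445 to 13296), an interval as wide as a base of 2 counts makes it.

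Gata4 was present in both MEF lines. Its level was 8.86 TPM (8.12 to 9.67) in Tsc2+/+ MEFs and 39.2 TPM (37.0 to 41.4) in Tsc2-/- MEFs, where it exceeded 85.8% of all symbols. The ratio was 4.42 (3.98 to 4.91). The kidney libraries held between 2 and 6 Gata4 counts, or 0.134 TPM in untreated MKOC, 0.0576 TPM in treated MKOC, 0.341 TPM in untreated TJ and 0.232 TPM in treated TJ cells. These 4 levels had overlapping intervals. The TJ levels included 2 counts and 1 count assigned to a 599-base Gata4 transcript, and a count on a short transcript weighs more in TPM.

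Gata4 was also the only member spread over several transcripts. Its gene lies at chr14:63198922-63271692 on the minus strand (GRCm38). A 2407-base transcript that starts inside the gene (chr14:63198924-63213607) took 64.8% of the Gata4 counts of Tsc2+/+ MEFs, against 54.7% for Tsc2-/- MEFs. A 3374-base transcript took 11.8% and 26.3%, and a 3400-base transcript that starts close to it took 15.9% and 13.5%. Kallisto divides reads among transcripts that share most of their sequence, so these shares are estimates. The other expressed members had at least 99.8% of their counts on 1 transcript in each MEF library where they were above 1 TPM.

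Tcf21 is a basic helix-loop-helix (bHLH) factor of the mesenchyme of visceral organs and of the epicardium. It had no count in Tsc2+/+ MEFs or in any kidney library, and 87 counts, 5.39 TPM (4.37 to 6.65), in Tsc2-/- MEFs. Set against the value of 3 counts in the Tsc2+/+ library (0.0925 TPM), its level was 58.3-fold higher. That is not a strict lower bound, as the Wilson interval in Tsc2+/+ MEFs reached 0.118 TPM. Its gene (chr10:22817281-22820174, minus strand) has 1 transcript in the table, of 1223 bases and 2 exons, and none of its 31-base words occurs in another gene of the annotation.

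The T-box factors, named for the DNA-binding domain they share, split in both directions. Tbx5, which is needed for the forelimb and the heart and is also found in lung mesoderm (chr5:119832668-119885219, plus strand), was at 0.0941 TPM (0.0528 to 0.168) in Tsc2+/+ MEFs and 8.94 TPM (8.20 to 9.74) in Tsc2-/- MEFs. The ratio was 94.96 (53.3 to 194). Kidney levels lay between 0.0171 and 0.0336 TPM, at or under the floor of 3 counts. Tbx5 thus followed the order of Gata6 and Tcf21, with the Tsc2-/- MEFs alone above 1 TPM.

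Tbx15, a factor of the trunk dermis and limb skeleton (chr3:99240381-99354259, plus strand), was the only member with the opposite order. It was at 5.87 TPM (5.42 to 6.36) in Tsc2+/+ MEFs and at 0.534 TPM (0.370 to 0.772) in Tsc2-/- MEFs, from 594.1 and 28 counts. The ratio was 0.0910 (0.0600 to 0.133). Kidney libraries held between 0 and 5 counts. Its upstream neighbour on the same strand, Wars2, which encodes a mitochondrial tRNA synthetase, was at 19.2 and 8.10 TPM in the same MEF libraries.

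Tbx18, a factor of the epicardium, the ureter mesenchyme and the anterior somite (chr9:87702800-87731260, minus strand), was at nearly the same level in both MEF lines. Its levels were 8.81 TPM (8.33 to 9.31) in Tsc2+/+ and 10.1 TPM (9.33 to 10.8) in Tsc2-/- MEFs, a ratio of 1.14 (1.04 to 1.25). Kidney libraries held between 0 and 3 counts. The order of the MEF lines turned under other scalings, since the counts scaled to library size alone (CPM) were 33.3 and 29.2. Of the 31-base words of Tbx18, 19.5% occur in other annotated genes, mostly in D030062O11Rik on the opposite strand, so part of its reads can be ambiguous if strand was not used in the counting.

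Osr1, an odd-skipped zinc-finger factor of the intermediate and lateral plate mesoderm (chr12:9570116-9581500, plus strand), was the other gene at a like level. It was at 11.0 TPM (10.2 to 11.9) in Tsc2+/+ and 11.2 TPM (10.1 to 12.5) in Tsc2-/- MEFs. The ratio was 1.02 (0.890 to 1.17), and the intervals of the levels overlapped. Osr1 was the highest of the 9 in Tsc2+/+ MEFs, followed by Gata4 and Tbx18, whose intervals overlapped each other and not that of Osr1. In Tsc2-/- MEFs, it stood below Gata4 and Gata6 and its interval overlapped that of Tbx18.

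Pitx1 and Isl1 were all but absent. Pitx1, a homeobox factor of the hindlimb (chr13:55825051-55836192, minus strand), had 1 count in Tsc2-/- MEFs and none in the other 5 libraries. Isl1, a LIM-homeodomain factor of the second heart field, hindlimb field and motor neurons (chr13:116298281-116309689, minus strand), had 4 counts in Tsc2-/- MEFs, or 0.130 TPM (0.0507 to 0.336), and none in the other 5. A count of 0 allows up to 0.0421 TPM of Pitx1 and 0.0409 TPM of Isl1 in the Tsc2+/+ library at the floor of 3 counts. The Wilson interval of Isl1 in Tsc2+/+ MEFs reached 0.0524 TPM and overlapped that in Tsc2-/- MEFs, so no ratio is given for either gene. With 1 TPM added, their log2 folds were 0.18 for Isl1 and 0.04 for Pitx1. Tbx4, another hindlimb factor, did not reach 1 TPM in any library.

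The study read its MEF comparison as a fold change of transcripts with 1 TPM added to each value and kept differences of at least 8-fold. On that scale, but with TPM summed per symbol, Gata6 was 34.2-fold and Tbx5 9.08-fold higher in Tsc2-/- MEFs. Of the 7 members at 1 TPM or more in at least 1 MEF library, 2 were therefore past 8-fold higher, against 3.24% of 12771 symbols, and 0 were past 8-fold lower, against 0.525%. Past 2-fold, 4 were higher (Tcf21 at 6.39-fold and Gata4 at 4.07-fold in addition), against 25.2%, and 1 was lower (Tbx15, 0.223-fold), against 5.18%. With 7 genes, these shares describe the members and are not a test. Tcf21, Gata6 and Tbx5 were among the 7 through their level in Tsc2-/- MEFs alone, and Tbx15 through that in Tsc2+/+ MEFs. Over all 9 members, with no filter, the median log2 fold was 0.18, and it was 0.21 over the 18950 symbols with a count in a MEF library. It was 0.45 over the 12771 symbols compared. The middle member of the 9 was Isl1, with 0 and 4 counts, and the median is set by the added value, as it was 1.2 with 0.1 TPM added, a setting chosen for it after the data were seen.

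The shift of 0.45 touches the members near no difference. Relative to it, log2 folds were 4.64 for Gata6, 2.73 for Tbx5, 2.22 for Tcf21, 1.57 for Gata4 and -2.62 for Tbx15. Tbx18 and Osr1 came to -0.28 and -0.43. The choice of the added value moved Gata6, Tcf21 and Tbx5 most, the members near 0 in Tsc2+/+ MEFs and above 5 TPM in Tsc2-/- MEFs. With 0.1 or 0.5 TPM added, Tcf21 also passed 8-fold higher, with 0.1 TPM Tbx15 passed 8-fold lower, and with 5 TPM added no member did.

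**Figure D2:**
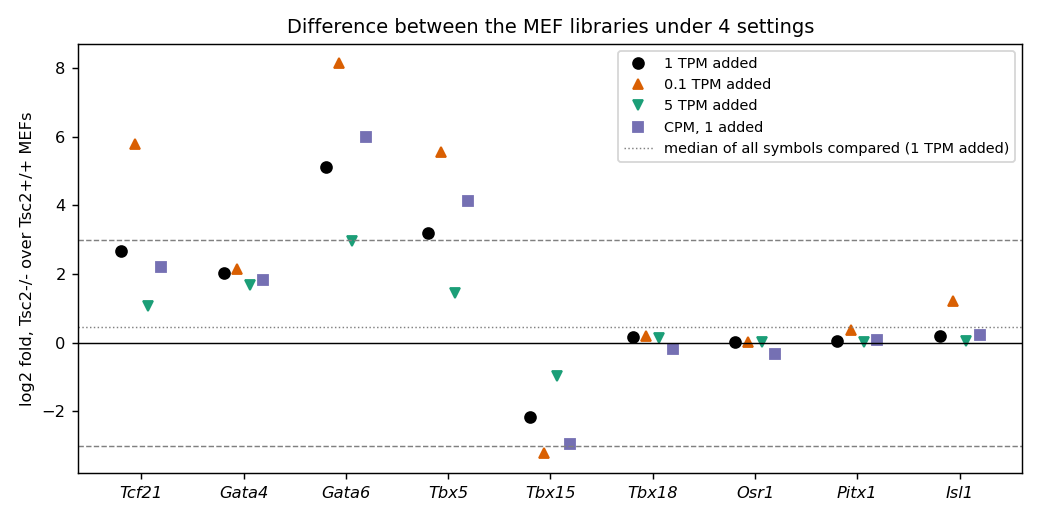
Log2 fold of each factor, Tsc2-/- over Tsc2+/+ MEFs, with 1, 0.1 or 5 TPM added or from CPM with 1 added. Dashed lines mark 8-fold, and the dotted line marks the median of all symbols compared (0.45). Gata6, Tbx5, Tcf21 and Gata4 lie above 0 and Tbx15 below it under each of the 4 settings, while Tbx18 and Osr1 change sign. The added value alone cannot change a sign.

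Sequence upstream of the start was read for 3 of the 9 genes, from RefSeq (GRCm38.p6). The windows of Tcf21, which was found in a single MEF line, and of Tbx18, which was at a similar level in both, are printed in the direction of transcription and end at the base before the annotated start. Matches to 3 motifs were searched for on both strands, the GATA motif AGATAA, also with T as its first or G as its last base, the T-box element GGTGTG and the E-box CANNTG, to which bHLH factors bind. Capitals mark a match.
Tcf21, chr10:22820175-22820393, minus strand: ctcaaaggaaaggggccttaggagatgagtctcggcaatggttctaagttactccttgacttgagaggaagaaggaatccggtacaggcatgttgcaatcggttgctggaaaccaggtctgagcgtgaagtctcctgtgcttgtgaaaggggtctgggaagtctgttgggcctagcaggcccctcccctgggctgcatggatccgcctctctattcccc
Tbx18, chr9:87731261-87731510, minus strand: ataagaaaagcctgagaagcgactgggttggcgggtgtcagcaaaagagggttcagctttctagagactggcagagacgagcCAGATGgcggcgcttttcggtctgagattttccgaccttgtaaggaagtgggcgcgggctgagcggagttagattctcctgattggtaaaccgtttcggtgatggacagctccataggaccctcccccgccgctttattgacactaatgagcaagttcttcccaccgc

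The 219 bases of Tcf21 held no match to any of the 3 motifs. Of 32851 promoters, 23.4% hold the GATA motif, 14.5% the T-box element and 61.5% the E-box in a window of that length. The 250 bases of Tbx18 held 1 E-box, CAGATG, at 168 to 163 bases before the start, and 66.2% of promoters hold one. The GC contents were close, 54.8% for Tcf21 and 54.0% for Tbx18, around a median of 52.4% over all promoters. They differed in CpG dinucleotides, with 5 in the Tcf21 window, 0.31 of the number that its base composition would give, and 15 in the Tbx18 window, or 0.84. The third window, that of Isl1 (chr13:116309690-116309938, 249 bases), held 1 GATA match, TGATAA, at 114 to 109 bases and 1 E-box, CAGCTG, at 102 to 97 bases before the start, with 71.1% GC and 33 CpG dinucleotides. A motif match is a description of the letters, and its absence from a short window says nothing of the factor.

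The families of the 9 factors were then read in full. Of the 8 GATA factors and FOG cofactors, 6 reached 1 TPM in a MEF library, and all 6 were at least 2-fold higher in Tsc2-/- MEFs, as were 25.2% of all symbols compared (median log2 fold 1.97, against 0.45). Of the 6, Gata2, Gata3 and Gata6 entered through the Tsc2-/- library alone and so had to be higher there. The FOG cofactors bind GATA proteins. Zfpm2 (FOG2), the partner of GATA4 in the heart and gonad, was at 6.25 and 18.9 TPM in the Tsc2+/+ and Tsc2-/- MEFs, and at most 0.214 TPM in the kidney cells. Zfpm1 (FOG1) was at 5.07 and 17.9 TPM in the MEFs and between 21.3 and 41.0 TPM in the kidney cells. The kidney cells expressed another GATA factor, Gata3, a gene of the nephric duct, at 11.5 to 15.7 TPM, against 0.660 and 5.21 TPM in the MEFs. The kidney lines thus had GATA family RNA without Gata4 or Gata6 at 1 TPM.

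Of all symbols compared, 3.24% were past 8-fold higher and 0.525% past 8-fold lower. Of 17 T-box genes, 6 were compared between the MEFs, with 1 past 8-fold higher (Tbx5) and a median log2 fold of 0.19, against 0.45. Mga, a broadly expressed gene that also encodes a bHLH domain, was the highest, at 40.1 and 46.7 TPM, and stood between 27.2 and 45.8 TPM in the kidney cells. Of 15 bHLH factors and partners, 8 were compared, and 1 was past 8-fold higher. That was Hand2, a factor of the heart, limb bud and visceral mesoderm, at 0 and 10.6 TPM. Tbx5 and Hand2 entered through the Tsc2-/- library alone and so had to be higher there. Twist1, a general mesenchymal bHLH factor, was at 10.3 and 16.2 TPM in the MEFs and was listed at 0 in the kidney cells. The E-proteins Tcf3, Tcf4 and Tcf12, which pair with bHLH factors such as Tcf21, were at 33.0 and 63.7, 79.0 and 45.6, and 103 and 96.2 TPM. Of 16 odd-skipped, Pitx and LIM-homeodomain genes and cofactors, 7 were compared and none was past 8-fold. Ldb1, a cofactor of LIM proteins such as Isl1, was at 56.2 and 116 TPM.

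Lists by place in the embryo, chosen with earlier results known, are given by their counts beside the shares of all symbols compared, 3.24% past 8-fold higher and 0.525% past 8-fold lower. Of 16 splanchnic and lateral plate factors, 10 were compared, 3 were past 8-fold higher in Tsc2-/- MEFs and none lower, with a median log2 fold of 1.87. Beside Gata6 and Hand2, the third was Wt1, a zinc-finger factor of the mesothelium, gonad and podocytes, at 0.0668 and 81.6 TPM. These 3, and Tcf21 and Foxf1, entered through the Tsc2-/- library alone, so that the count and the median describe the list and support no direction. Of 20 paraxial, somitic and head mesenchyme factors, 10 were compared, 2 were past 8-fold lower and none higher, with a median of -1.26. These 2 were Alx1, a factor of the facial mesenchyme, at 27.1 and 0 TPM, and Alx4, of the limb and skull, at 11.0 and 0.141 TPM, which was named after its value was seen. Both entered, as did Tbx15 and Foxc2, through the Tsc2+/+ library alone, so this count and median also support no direction. The list also holds Tbx18, at nearly the same level in both MEF lines, and Prrx1. Prrx1, a limb and head mesenchyme factor, was at 261 and 60.6 TPM. The lists share genes, and 4 of the 9 members are in the splanchnic counts compared.

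Of 18 limb bud genes, 10 were compared, with 2 past 8-fold higher (Tbx5 and Hand2), 1 lower (Alx4) and a median of -1.25. Tbx5 and Hand2 entered through the Tsc2-/- library alone, and Alx4 and Msx1 through the Tsc2+/+ library alone. The counts and the median thus support no direction. Fgf10, the growth factor that Tbx5 activates in the forelimb bud, had the reverse order of Tbx5, at 26.7 and 8.74 TPM. Shox2, a factor of the proximal limb, was at 25.4 and 5.93 TPM, and Meis2, also proximal, at 19.2 and 46.4 TPM. Of 17 cardiac regulators and muscle genes, 6 were compared and 1 (Hand2) was past 8-fold. Nkx2-5, which acts with Gata4 and Tbx5 in the heart, did not reach 1 TPM in any library. Others of the list did in the MEFs, with the cardiac T-box factor Tbx20 at 7.68 and 5.76 TPM and the troponins Tnnt2, at 0 and 1.63 TPM, and Tnni3, at 0.0784 and 1.59 TPM. Tnni3 rested on 10 counts in Tsc2-/- MEFs. The 8 cardiomyocyte markers summed to 0.672 and 4.50 TPM in the MEFs, where the defining myosin genes Myh6 and Myh7 did not reach 1 TPM. The kidney cells were higher, with Tnnt2 at 4.16 to 17.3 TPM and a sum of the 8 markers of 6.23 to 23.5 TPM. Of 15 renal stromal and nephron progenitor factors, 8 were compared, with 1 past 8-fold (Wt1). In the kidney cells this list was led by Pax8, a factor of the renal epithelium, at 121 to 164 TPM. The MEF-expressed genes of this list among the 9 factors, Osr1, Tcf21 and Tbx18, did not reach 1 TPM there. Of 10 neural crest and neural factors, 1 was compared between the MEFs, Tfap2b, at 6.25 and 0.0323 TPM, which was named after its value was seen.

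**Figure D3:**
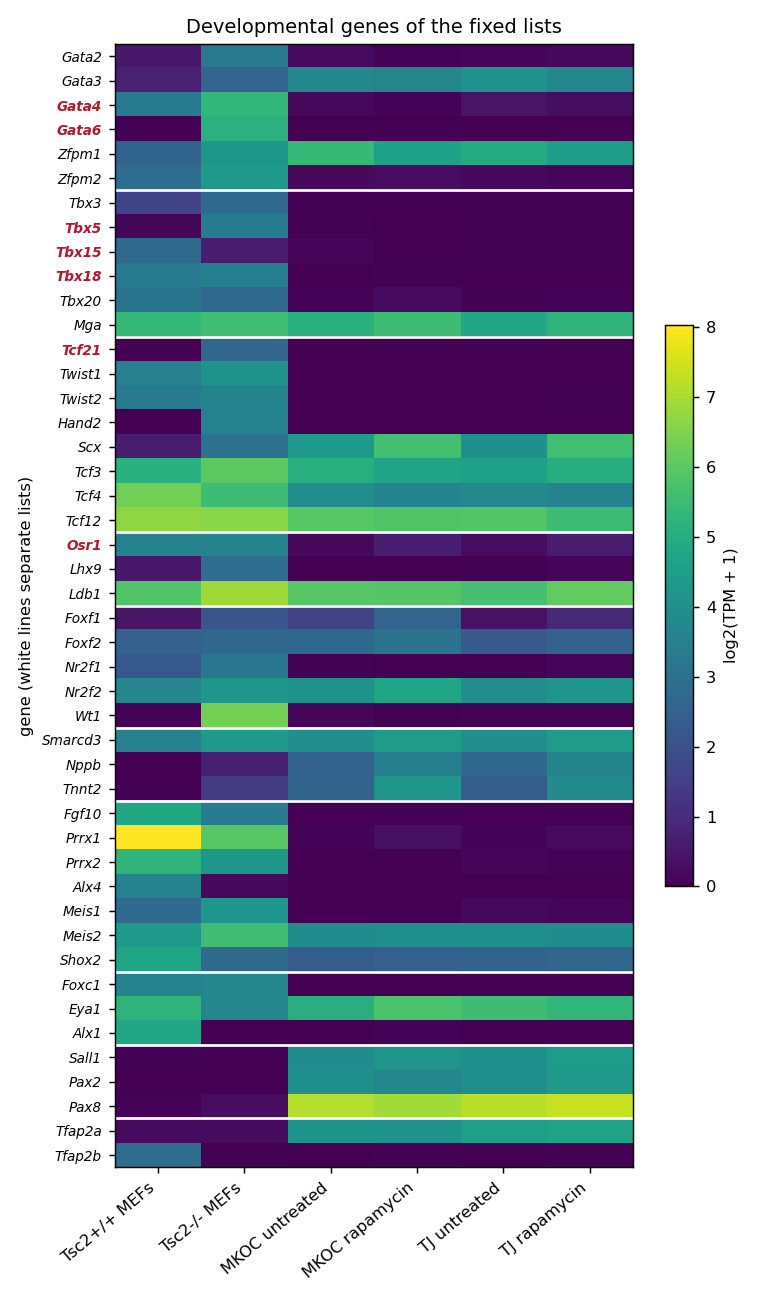
Log2(TPM + 1) of 46 listed developmental genes at 5 TPM or more in at least 1 library (rows, 7 of the 9 factors in red) in the 6 libraries (columns). White lines separate the lists. Tcf21, Gata6, Tbx5, Hand2 and Wt1 are bright in the Tsc2-/- MEF column alone, and Alx1, Alx4 and Tbx15 in the Tsc2+/+ MEF column alone.

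Markers of another cell type moved with the factors that were higher in Tsc2-/- MEFs. Of 10 mesothelial markers, 2 reached 1 TPM in Tsc2+/+ and 9 in Tsc2-/- MEFs, against 37.4% and 40.7% of all symbols. The 10 summed to 7.69 and 724 TPM. Of the 9, all but Msln and Podxl were below 1 TPM in Tsc2+/+ MEFs. They entered through the Tsc2-/- library alone and so had to be higher there. Gata4, Gata6, Tcf21 and Tbx18 are known in the mesothelium or in mesenchyme derived from it, but Tbx18 was at nearly the same level in both MEF lines. Upk3b and Upk1b, uroplakins of the mesothelial surface, were at 0 in Tsc2+/+ MEFs and at 154 and 71.9 TPM in Tsc2-/- MEFs, and at most 0.118 TPM in the kidney cells. Msln, mesothelin, was at 2.57 and 60.6 TPM in the MEFs but at 69.5 to 150 TPM in the kidney cells, so not all of the list was low there. The part of this marker difference in the levels of the 9 factors was not tested. Smooth muscle markers summed to 238 and 498 TPM, skeletal muscle markers to 2.16 and 22.7 TPM, nearly all of it Des, visceral endoderm and trophoblast markers to 1.42 and 13.5 TPM, macrophage markers to 5.89 and 18.3 TPM, and endothelial markers to 1.02 and 3.78 TPM in the Tsc2+/+ and Tsc2-/- MEFs. The muscle regulators Myod1, Myog and Myf5 were listed at 0 in both. Kidney epithelial markers summed to 0.697 and 84.5 TPM, mostly from the keratins Krt18, at 0 and 20.6 TPM, and Krt19, at 0.0506 and 55.6 TPM, of which Krt19 is also on the mesothelial list. Fibroblast markers summed to 7978 and 4401 TPM, of which Vim, S100a4, Fn1, Col1a2, Pdgfrb and Postn were lower in Tsc2-/- MEFs and Dcn, Col1a1, Col3a1, Pdgfra and Thy1 higher. Of these 11, 2 were past 8-fold higher (Dcn, at 7.08 and 422 TPM, and Thy1, at 0 and 7.36 TPM) and 1 past 8-fold lower (Postn, at 52.9 and 5.43 TPM).

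For each of the 7 expressed members, the symbols with the nearest pattern over the 6 libraries were found by Euclidean distance of log2(TPM + 1) among 10784 other symbols. Gata6 was nearest to Aldh1a2, an enzyme of retinoic acid synthesis, at 0 and 35.0 TPM in the Tsc2+/+ and Tsc2-/- MEFs, a distance of 0.07. Gata4 was nearest to Pdgfra, a receptor of fibroblasts, at 10.8 and 36.1 TPM, a distance of 0.46. Tcf21 lay nearest to Arhgap20, at 0 and 5.41 TPM, and Tbx5 to Usp13, at 0 and 9.08 TPM, a distance of 0.14. Tbx15 was nearest to Lrrn3 and then to Runx3, a Runt-domain factor at 7.05 and 0.603 TPM, distances of 0.19 and 0.25. Tbx18 was nearest to Twist2, a bHLH factor of the dermis at 8.69 and 11.0 TPM, a distance of 0.14. Osr1 had Pcbp3 nearest, at 14.1 and 10.7 TPM, a distance of 0.46. Since 4 of the 6 libraries were near 0 for each, these distances mostly reflect a pair of MEF values. With 0.1 TPM added, Usp13, Twist2 and Pcbp3 were no longer among the 3 nearest symbols of Tbx5, Tbx18 and Osr1, while the other neighbours named here were kept.

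The kidney lines were compared with each other at no rapamycin. No member reached 1 TPM in either line, so none entered the comparison in which 2.9% of 11950 symbols differed at least 2-fold either way. With 1 TPM added, folds of TJ over MKOC lay between 0.962 for Tbx15 and 1.18 for Gata4. From counts, the ratio for Osr1 was 1.30 (0.374 to 4.68) and that for Gata4 was 2.55 (0.615 to 10.01). Differences of that size were not detectable at this depth.

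Rapamycin could be tested over the 2 lines, with the line as a block. Osr1 was the only member with enough counts to enter the test. It had 6 counts in untreated and 17 in treated MKOC cells, and 7 in untreated and 19 in treated TJ cells. The levels were 0.163 TPM (0.0748 to 0.356) and 0.596 TPM (0.372 to 0.955) in MKOC, and 0.212 TPM (0.103 to 0.438) and 0.573 TPM (0.367 to 0.895) in TJ cells. Both treated libraries were higher than both untreated ones. All 4 levels were below 1 TPM, and those of the MEFs were 11.0 and 11.2 TPM.

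Osr1 rose with rapamycin by 1.62 ± 0.47 on the log2 scale (SE from the edgeR model, n = 2 lines). The adjusted p was 0.0222 (edgeR quasi-likelihood, Benjamini-Hochberg over 12952 genes). Within lines, the log2 changes were 1.86 in MKOC and 1.43 in TJ, and the ratios from counts 3.63 (1.37 to 11.2) and 2.69 (1.08 to 7.57). The background was wide, as 17.5% of the genes were called higher and 17.4% lower. Osr1 entered the test through its treated libraries, so its share of the members is not support. The call was lost without the line as a block, at an adjusted p of 0.0947, and DESeq2 gave a log2 change of 1.64 ± 1.12 (SE) with an unadjusted p of 0.142 in its model over all genes and no adjusted p.

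**Figure D4:**
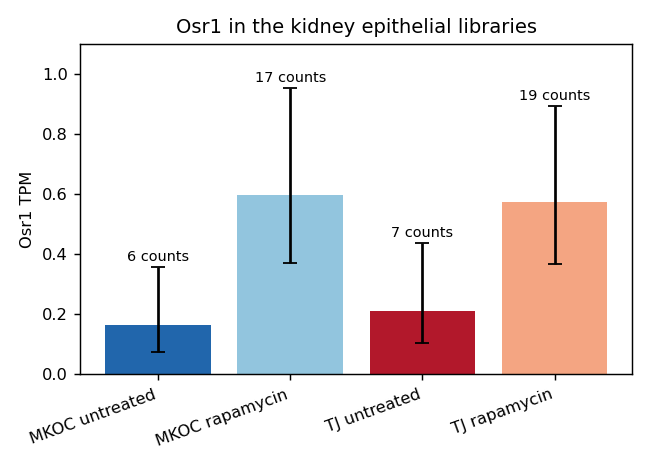
Osr1 TPM in the 4 kidney epithelial libraries, with 95% Wilson intervals of counting error and the estimated counts above the bars. The 2 rapamycin-treated libraries, at 0.596 and 0.573 TPM, stand above the 2 untreated ones, at 0.163 and 0.212 TPM, and the intervals of TJ cells overlap.

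The other 8 members had at most 6 counts in any kidney library. Gata4 had 6 and 2 counts in MKOC, a ratio of treated to untreated of 0.427 (0.0422 to 2.39), and 5 and 5 in TJ cells, 0.990 (0.228 to 4.30). A rapamycin response of these genes was not detectable at this depth. Among the relatives of the members, Scx, a bHLH factor of tendon, rose by 1.47 on the log2 scale (edgeR adjusted p = 5.4e-05), from 19.1 to 48.6 TPM in MKOC and from 15.4 to 47.1 TPM in TJ cells. It was 1 of 5 bHLH genes tested, of which 1 rose and 1, Tcf12, fell by 0.33. Zfpm1 fell by 0.70 (adjusted p = 0.0089), the 1 call among 3 GATA and FOG genes tested. Of 4 cardiac genes tested, 3 rose, with the troponin Tnnt2 changed by 1.61, the natriuretic peptide gene Nppb by 1.09 and the chromatin factor Smarcd3 by 0.41. Foxf1, a factor of gut and lung mesenchyme, rose by 1.34, and with Osr1 made the 2 of 4 splanchnic genes that rose. Mga rose by 0.33, 1 of 3 T-box genes tested, and Sall1, a nephron progenitor factor, by 0.37, which with Osr1 made 2 of 8 renal genes. None of the 3 limb, 3 paraxial or 1 neural crest genes tested was called by edgeR. With 17.5% of all genes tested called higher, counts over lists this short say little of a list. Of the marker lists, 4 of 10 fibroblast, 4 of 10 kidney epithelial, 1 of 2 mesothelial, 1 of 2 cardiomyocyte, 2 of 3 macrophage and 1 of 2 visceral endoderm and trophoblast genes rose in the same test, and 0 of 3 endothelial, 0 of 2 skeletal muscle and 0 of 4 smooth muscle genes did.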

How the data were processed

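The authors sequenced poly(A)-selected stranded libraries, trimmed the reads and quantified them with Kallisto. Estimated counts and TPM of 88198 transcripts were deposited. The study's methods name a human reference, although the identifiers belong to mouse transcripts. Gene symbols were read from the authors' table of fold changes, a ratio column that was not otherwise used. Transcripts with no symbol (1006, with 0.372% to 0.468% of counts) were left out of sums, and 8 carried 2 symbols. Whether Kallisto used strand is not given in the sources used here. Positions are from GENCODE M21 (GRCm38).

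TPM and estimated counts were summed per symbol. Folds had 1 TPM added, with thresholds of 8-fold (the study's) and 2-fold, over symbols at 1 TPM or more in 1 of the libraries. For rapamycin, rounded counts that passed filterByExpr were scaled by TMM and entered edgeR's quasi-likelihood model, with the line as a block (1 residual degree of freedom) and a threshold of 0.05 on the Benjamini-Hochberg adjusted p. Lines are named in the labels and so pair the libraries, and the deviations of paired libraries correlated at 0.56 across 12952 genes. The lines are the replicates. With 1 residual degree of freedom, p-values and SEs rest largely on variance information shared over all genes tested. They are not a measure of the spread between the 2 lines alone.

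All 9 members were named in every library. Listed genes were named at 10 TPM or past 8-fold, at most 5 a list by level, and a few more were named as relatives or as defining markers. Single values of a few listed genes are not reported here. The members, the 10 lists and 9 marker lists were chosen with earlier results of these data known. The alternatives were other pseudocounts, scalings, CPM, single transcripts, thresholds, filters and models. Steps were tested on simulated data. Python 3.11.15 was used with matplotlib 3.10.9, numpy 2.4.6, scipy 1.17.1 and pandas 2.3.3. R was version 4.3.3, and the R packages were DESeq2 1.42.0, edgeR 4.0.16 and limma 3.58.1.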

Additional observations from a re-analysis of the deposited data

How the results depend on the processing

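Of the 7 members compared between the MEF libraries, 2 were past 8-fold higher, and the count was 3 (with Tcf21) with 0.1 or 0.5 TPM added, 0 with 5 TPM added, 1 (Gata6) after scaling to a median TPM ratio of 1 and 4 at a 2-fold threshold. The count past 8-fold lower was 0, and it was 1 (Tbx15) with 0.1 TPM added or at a 2-fold threshold. Ranges of the log2 folds are given over the 7 alternatives to the added 1 TPM. They were 2.95 to 8.13 for Gata6, 1.45 to 5.54 for Tbx5 and 1.06 to 5.78 for Tcf21. They were 1.65 to 2.13 for Gata4 and -3.23 to -0.97 for Tbx15. None of these 5 turned direction, while Tbx18 (-0.19 to 0.19) and Osr1 (-0.33 to 0.03) did. An added value or a filter cannot turn a direction. Only scaling, CPM and, for genes with several transcripts, the single transcript could. For rapamycin, 1 member was called, with no replicate block 0 were, Osr1 then having an adjusted p of 0.0947 and an unadjusted p of 0.0185 by edgeR. Over all genes, the block moved the calls from 559 higher and 716 lower to 2267 and 2259. By edgeR, the adjusted p of Osr1 was 0.0212 with upper-quartile normalization and 0.0387 without the filter. It was 0.0471 by limma on log2(TPM + 1), with a log2 change of 0.42, against 1.62 in the main fit. DESeq2 called 0 members and gave no adjusted p for Osr1. Leaving out 1 line gave log2 changes of 1.43 and 1.86 with no test. No member reached 1 TPM in a kidney library, so the count of 0 for TJ against MKOC says nothing of stability. Of the 21 nearest symbols, 8 were shared with 0.1 TPM added. The causes were not tested. Single libraries limit the MEF values to counting error, and counts under 20 limit the kidney ones.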
